A study of Mus musculus with 12 samples.

Results

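All 9 arrays of granule cell cultures that received a β4 splice variant were pooled and set against the 3 arrays of cultures that received eGFP, to look for expression changes that β4a, β4b and β4e have in common. The 12 arrays are the whole series: 3 with β4a, 3 with β4b, 3 with β4e and 3 with eGFP. The groups were taken from the sample titles, and each variant array was set against the eGFP array of its own replicate number, 1 to 3. All 12 cultures, the eGFP controls included, came from lethargic mice on the 129/SvJ background, so by these labels all carried the lethargic mutation of Cacnb4. The growth protocol also names BALB/c mice as a source, while the characteristics give lethargic for all 12 samples, and the characteristics were followed. The granule cells were taken at postnatal day 7, exposed to lentivirus for 12 hours directly after plating, treated with Ara-C against dividing non-neuronal cells, and lysed at 9 days in vitro. The construct names carry the prefix bA before β4a, β4b, β4e or eGFP, which the labels do not explain. The labels do not say whether the replicate numbers are separate litters, cultures or days, so p-values concern only the spread between these samples. Unless stated otherwise, they measure the part of that spread that is left within replicate numbers.

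The β subunits of voltage-gated calcium channels sit on the cytoplasmic side of the pore-forming α1 subunit, help bring it to the membrane and tune its opening. Cacnb4 encodes β4, the β subunit that is abundant in the cerebellum, and lethargic mice, which lack a working β4, are ataxic and have seizures. Splice variants of β4 differ in their ends, and some of them enter the nucleus of granule cells, which is why an effect on transcription is of interest.

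Values are log2 GCRMA intensities from Affymetrix 3′ expression arrays, and a difference of 1 is a doubling. Of 45101 probe sets, 23044 were above 4 in at least 3 of the 12 arrays and were tested, 19477 of them with 1 gene symbol. Gabra6, the GABA receptor subunit that marks mature granule cells, stood between 13.58 and 14.02 on all 12 arrays. The replicate number accounted for 76.0% of the variation between arrays and the group for 10.5%. Arrays with the same number deviated together from their group means (r = 0.699 to 0.884 over the tested probe sets, 18 pairs), and the differences below are within replicate numbers.

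Pooled over the 3 variants, 5 of 23044 probe sets passed an adjusted p of 0.05 (0.0217%; limma with the replicate number as a block, Benjamini-Hochberg over all tested probe sets). Insm1 fell, and Haghl, Limd2, Rasgef1a and Hook3 rose. At an unadjusted p under 0.05 there were 4036 probe sets (17.5%), 2307 of them higher (10%) and 1729 lower (7.5%). That split turned when each array was centred on its own median, to 1663 higher and 2332 lower, with 11 probe sets passing. Without the block 0 probe sets passed (467 at an unadjusted p under 0.05, 2.03%), and in 12 fits that each left out 1 array the count ran from 0 to 3. In 2 other fits of the same 12 arrays within replicate numbers 0 probe sets passed: with 1 coefficient for all variants the smallest limma adjusted p was 0.105 (3937 at an unadjusted p under 0.05), and with 1 mean difference per number it was 0.276 (3366). The 4036 probe sets at an unadjusted p under 0.05 became 2446 without eGFP replicate 2, 1324 higher and 1122 lower.

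Insm1, a zinc finger regulator found in neuroendocrine and in young, differentiating neurons, was the only one of the 5 that fell. Its level with eGFP was 10.85, 7.56 and 9.17 in replicates 1, 2 and 3. It was 9.76, 5.89 and 7.48 with β4a, 9.88, 6.08 and 7.69 with β4b, and 10.45, 6.62 and 8.25 with β4e. The eGFP array was the highest of its replicate number each time, although the groups overlapped because the numbers differed by more than 3 on the log2 scale. The pooled difference was -1.18 (SE 0.105), 2.27-fold lower, with a limma adjusted p of 0.0217 with the block and 0.9997 without it. A second, dimmer probe set of Insm1 differed by -0.67 (unadjusted p = 0.0326). The adjusted p of Insm1 stayed under the threshold in 3 of the 12 fits without 1 array, those without β4a replicate 1, β4e replicate 1 or eGFP replicate 1, and reached 0.210 in the others.

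Haghl is named for its likeness to the glyoxalase pathway enzyme hydroxyacylglutathione hydrolase. Of the 5 genes that passed, only Haghl and Hook3 had variant arrays that did not overlap the eGFP arrays. Zeb2 and Zfyve28, which did not pass, did not overlap either. The share over all tested probe sets was not counted, and these genes were selected on the same comparison. The non-overlap is therefore a description and does not set them apart. Haghl stood at 7.62, 7.27 and 7.53 with eGFP, and at 8.29, 8.11 and 8.13 with β4a. With β4b it stood at 8.28, 8.19 and 8.23, and with β4e at 7.995, 7.86 and 8.01. The pooled difference was 0.65 (SE 0.0733), 1.57-fold higher, with a limma adjusted p of 0.0471. Of its 3 other probe sets, those of middle brightness differed by 0.54 and 0.66, and the dimmest, at a mean level of 4.43, by -0.05.

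Limd2, a small LIM domain protein linked to cell motility, stood at 6.80, 7.16 and 5.06 with eGFP. Its levels were 7.46, 8.10 and 5.65 with β4a, 8.46, 8.54 and 6.26 with β4b, and 7.55, 8.01 and 6.09 with β4e. Within every replicate number the eGFP array was the lowest. The pooled difference was 1.01 (SE 0.116, limma adjusted p = 0.0471), 2.01-fold higher. A dimmer probe set of the gene, at a mean level of 4.33, differed by 0.08.

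Rasgef1a, a guanine nucleotide exchange factor for small GTPases, stood at 5.02, 6.78 and 5.28 with eGFP. It was 6.14, 7.97 and 6.03 with β4a, 5.95, 7.50 and 5.82 with β4b, and 5.71, 7.45 and 5.92 with β4e. The level in replicate 2 was high in all groups, and the eGFP array was the lowest of each number. The pooled difference was 0.81 (SE 0.0928, limma adjusted p = 0.0471), and a second, brighter probe set differed by 0.89 (unadjusted p = 0.00186).

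Hook3, an adaptor that links cargo to dynein, stood at 4.84, 4.83 and 4.23 with eGFP. It was 5.94, 5.89 and 5.25 with β4a, 5.53, 5.66 and 4.95 with β4b, and 5.08, 5.29 and 4.89 with β4e. Every variant array was above every eGFP array, the nearest at 4.89 against 4.84. The pooled difference was 0.75 (SE 0.0884, limma adjusted p = 0.0471). The result rests on 1 dim probe set: the brighter probe sets of Hook3, at mean levels of 8.13 and 6.95, differed by -0.06 and -0.01, and a dimmer one by 0.23. Of the 4 genes that rose, only Hook3 passed in any of the 12 fits that left out 1 array (1 fit, without β4e replicate 1).

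**Figure D1:**
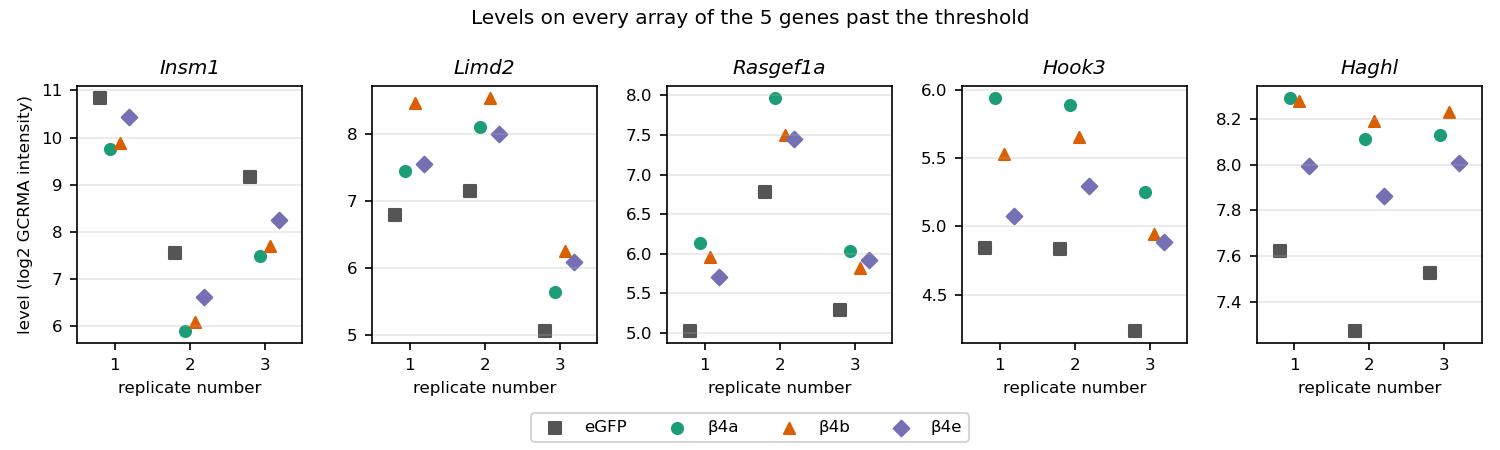
Level on the log2 GCRMA scale (vertical axis, its own range for each gene) of the 5 genes with an adjusted p under 0.05, by replicate number (horizontal axis); each point is 1 array. Within every replicate number the eGFP array is the highest for Insm1 and the lowest for the other 4 genes, while the replicate numbers themselves differ widely for Insm1, Limd2 and Rasgef1a.

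Whether a change belonged to all 3 variants was asked more strictly by requiring each variant to differ from eGFP by itself. By the largest of the 3 p-values, 0 of 23044 probe sets passed after Benjamini-Hochberg adjustment of the limma values, and 647 (2.81%) had all 3 unadjusted p-values under 0.05, 342 higher (1.48%) and 305 lower (1.32%). The 647 became 355 without β4e replicate 2 and 1125 without eGFP replicate 1. The block mattered here too, as only 31 probe sets (0.135%) met the unadjusted criterion without it. All 9 within-number differences had 1 sign for 2161 probe sets (9.38%), 1120 above 0 (4.86%) and 1041 below (4.52%). The 3 contrasts share the eGFP arrays, so these counts do not amount to 3 separate observations. Between replicate numbers, which share no arrays, the mean difference of the variants from eGFP correlated across the 23044 probe sets at r = 0.297 for numbers 1 and 2, 0.142 for 1 and 3, and 0.471 for 2 and 3. Probe sets are not independent replicates, and these values are a description.

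The size of the pooled change was next compared among the variants. A moderated F test on the 2 contrasts among β4a, β4b and β4e passed for 0 of 23044 probe sets (limma, Benjamini-Hochberg, smallest adjusted p = 0.707), with 1204 (5.22%) at an unadjusted p under 0.05, or 776 without β4e replicate 1. In that F test each of the 5 genes that passed the pooled test had a limma adjusted p of 0.896. For these 5 genes the differences between variants are given with unadjusted 95% intervals, as a description. The genes were selected by small pooled p from the same fit, which favours a small residual spread, so the intervals may be too narrow. Insm1 was lower with β4a than with β4e by -0.73 (-1.02 to -0.44) and lower with β4b than with β4e by -0.56 (-0.85 to -0.27). Between β4a and β4b it differed by -0.17, with an interval from -0.46 to 0.12 that includes 0. Limd2 was lower with β4a than with β4b by -0.69 (-1.01 to -0.37) and higher with β4b than with β4e by 0.54 (0.22 to 0.86), and β4a less β4e gave -0.15 (-0.47 to 0.17). Hook3 was higher with β4a than with β4e by 0.61 (0.37 to 0.85) and than with β4b by 0.32 (0.07 to 0.56), and higher with β4b than with β4e by 0.29 (0.05 to 0.53). Haghl was higher with β4b than with β4e by 0.28 (0.08 to 0.48) and with β4a than with β4e by 0.22 (0.02 to 0.42), and β4a less β4b gave -0.05 (-0.26 to 0.15). Rasgef1a was higher with β4a than with β4b by 0.29 (0.03 to 0.54) and than with β4e by 0.36 (0.10 to 0.61), and β4b less β4e gave 0.07 (-0.19 to 0.32).

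The variant with the smallest difference from eGFP was β4e for 23 of the 24 genes named by rule, 12 in each direction. The exception was Limd2, where β4a had the smallest. The largest difference came with β4b for 14 genes, with β4a for 10 and with β4e for 0. Over all tested probe sets the SD of the difference from eGFP was also lowest with β4e, at 0.193, against 0.291 with β4a and 0.302 with β4b. The 24 genes were selected on the mean of the 3 variants, which holds each variant's own value. The share of all tested probe sets with the smallest difference in β4e was not counted. The counts for the 24 genes are thus not read as particular to them.

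**Figure D2:**
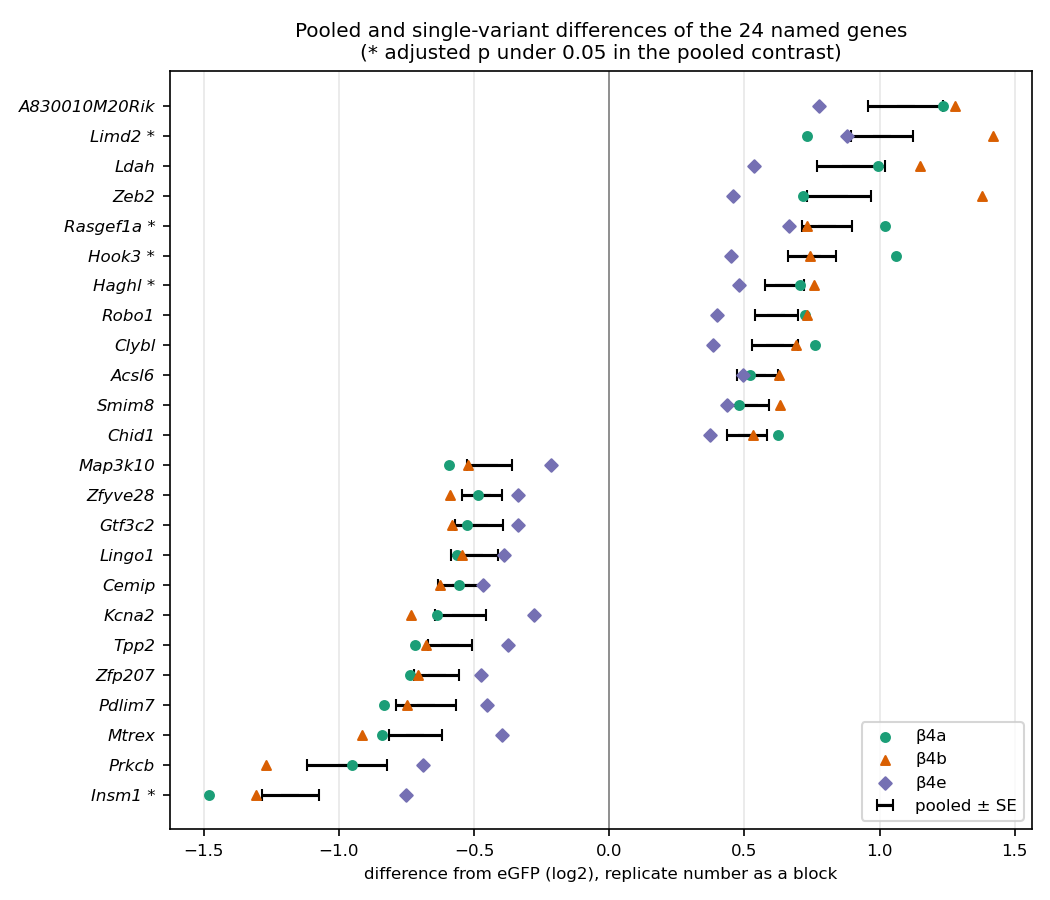
Difference from eGFP on the log2 scale (horizontal axis) of the 24 genes named by rule; the black bar is the pooled value ± SE and the coloured points are the single variants, all within replicate numbers. The β4e point is nearest to 0 for every gene but Limd2, and the 5 genes marked with an asterisk had an adjusted p under 0.05.

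Of the 12 higher genes named by rule, 8 did not pass, with limma adjusted p-values of 0.0612 to 0.0735. A830010M20Rik differed by 1.10 and stood at 5.79, 4.98 and 4.80 with eGFP, against 5.37 to 7.33 on the variant arrays. Zeb2, a zinc finger homeobox repressor, differed by 0.85. It stood at 4.64, 4.66 and 5.16 with eGFP and at 6.06, 6.20 and 6.32 with β4b, and its value was 1.38 with β4b, 0.72 with β4a and 0.46 with β4e. These values come from a dim probe set, and 2 brighter ones of Zeb2 differed by 0.56 and 0.40 (limma unadjusted p = 0.0288 and 0.134). On both, β4e replicate 1 was below eGFP, by -0.63 and -0.68, and on the second β4a replicate 1 was too (-0.51). Ldah, a lipid droplet hydrolase, differed by 0.89, and Acsl6, which activates long-chain fatty acids, by 0.55. Robo1, the axon guidance receptor for Slit proteins, differed by 0.62 and Clybl, a mitochondrial lyase, by 0.61. Chid1 and Smim8 differed by 0.51 and 0.52.

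Of the 12 lower genes, 11 did not pass (limma adjusted p = 0.0612 to 0.0979). Prkcb, the calcium-responsive protein kinase C β, differed by -0.97 on the named probe set and by -0.78 on a brighter one. Its levels were 10.98, 8.93 and 10.05 with eGFP, and 10.36, 7.68 and 9.06 with β4a. With β4b they were 10.06, 7.14 and 8.96, and with β4e 10.75, 7.63 and 9.52, so the eGFP array was the highest of each number. Kcna2, a delayed rectifier potassium channel of axons, differed by -0.55 and by -0.62 on a second probe set. The remaining genes were Mtrex, a helicase of nuclear RNA decay (-0.72), Pdlim7, an actin scaffold (-0.68), Zfp207 (-0.64), Tpp2, a peptidase (-0.59), and Cemip, which acts in hyaluronan breakdown (-0.55). Lingo1, a Nogo receptor partner, differed by -0.50, Gtf3c2, a subunit of an RNA polymerase III factor, by -0.48, Zfyve28 by -0.47 and the kinase Map3k10 by -0.44.

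Other probe sets of the same gene were measured for 18 of the 24 named genes. They all had the sign of the named probe set for 11 genes, and at least 1 of them was at an unadjusted p under 0.05 in the same direction for 12. For 10 genes the named probe set was dimmer than another one. Tpp2 was the clearest case of disagreement: 2 probe sets differed by -0.59 and -0.51, and the others, including the brightest, by 0.06, 0.25 and 0.22. For Mtrex the brighter probe set differed by -0.13, and for Zfp207 the 2 brightest by 0.02 and -0.04. The probe sets of Tpp2 and Zfp207 differed in direction, and those of Mtrex in size only. Those of Ldah, Gtf3c2 and Map3k10 differed in direction too. Other tested probe sets of Ldah differed by 0.23 on a brighter one and by -0.31 on a dimmer one. Those of Gtf3c2 differed by -0.12, -0.06, 0.06 and -0.21, and those of Map3k10 by 0.15 and -0.004. A830010M20Rik differed by 1.10 on its named probe set, by 0.39 on a dimmer one and by 0.12 on a brighter one (mean level 9.33, unadjusted p = 0.505), where the replicate 3 differences were -0.42, -0.70 and -0.38 with β4a, β4b and β4e.

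Gene groups were described with 1 probe set per gene, the brightest. Over all 10983 genes 59.2% lay above 0, 10.7% were higher and 3.82% lower at an unadjusted p under 0.05, the median difference was 0.03, and 3 genes (0.0273%) had an adjusted p under 0.05. Insm1, of the neuronal progenitor and Sonic hedgehog genes, is the only member of a described list among these 3, and the counts of list members below are at an unadjusted p under 0.05.

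Calcium channel subunits came first, as the channel partners of the added protein. Of 14 tested, 11 were below 0 and 3 above, with a median of -0.16, and 6 were lower and 1 higher at an unadjusted p under 0.05. Among the pore-forming subunits the L-type Cacna1d stood at 9.09, 7.70 and 9.46 with eGFP and between 6.75 and 9.29 on the variant arrays, and differed by -0.64. Cacna1c, the other neuronal L-type pore, differed by -0.32, the R-type pore Cacna1e by -0.28, the N-type pore Cacna1b by -0.20 and the T-type pore Cacna1g by -0.24. The P/Q-type pore Cacna1a, the main partner of β4 in the cerebellum, differed by -0.09. Cacna2d2, an auxiliary α2δ subunit, differed by -0.35. Cacng5, a γ subunit of the group that also regulates AMPA receptors, differed by 0.89, from 6.06, 4.81 and 3.73 with eGFP. Several of these differences were small in replicate 1. Over the variants, Cacna1d differed by -0.02, -0.88 and -1.02 in replicates 1, 2 and 3, and Cacna1c by -0.09, -0.40 and -0.47. Cacna2d2 differed by 0.06, -0.47 and -0.64, and Cacng5 by 0.14, 1.26 and 1.27. With β4e in replicate 1, Cacna1c, Cacna1d, Cacna1g and Cacna2d2 were above eGFP. Cacna1e and Cacna1b had all 9 differences below 0. No member had an adjusted p under 0.05 (limma, 0.160 to 0.281 for these 7 at an unadjusted p under 0.05).

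Cacnb4, the gene mutated in the mice and added back by the virus, had 3 probe sets that went different ways. The brightest, at a mean level of 12.0, differed by -0.10. The second differed by -0.25 and the dimmest by 0.29 (limma adjusted p = 0.212 and 0.206). On the dimmest the levels were 9.69, 9.47 and 10.05 with eGFP, 9.97, 9.93 and 10.16 with β4a, 10.23, 9.99 and 10.32 with β4b, and 10.02, 9.41 and 10.20 with β4e. Which of them read the added sequence was not tested. Probe sets of Cacnb1 and Cacnb2 were not above 4 in enough arrays to be tested.

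Genes induced by neuronal activity were the group that lay farthest from 0. Of 39 tested, 36 were above 0 and the median was 0.70, but only 5 were higher and 1 lower at an unadjusted p under 0.05. The variants and replicate numbers were far apart. The list median was 2.46, 0.74 and 0.04 with β4a in replicates 1, 2 and 3, then 1.06, 0.21 and -0.06 with β4b, and -0.22, 0.15 and -0.01 with β4e. The pooled median was 0.16 without eGFP replicate 1 and 0.45 without β4a replicate 1. The 4 highest of these 9 medians were those of β4a and β4b in replicates 1 and 2.

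Single members show the same make-up. Npas4, a transcription factor induced by calcium entry, stood at 3.02, 10.43 and 9.11 with eGFP. It was 13.77, 13.55 and 6.98 with β4a, 12.89, 12.27 and 7.35 with β4b, and 3.20, 11.90 and 6.52 with β4e. With each variant it was above eGFP in replicates 1 and 2 and below eGFP in replicate 3. With β4e in replicate 1 it was only slightly above, at 3.20 against 3.02. The pooled value of 2.30 had an SE of 1.82 (limma adjusted p = 0.552). Fos, a component of AP-1, stood at 8.62, 12.97 and 12.09 with eGFP and at 8.52, 13.62 and 11.31 with β4e. Its mean difference over the variants was 3.65, 1.03 and -0.89 in replicates 1, 2 and 3, the same order of signs as for Npas4. Dusp6, a phosphatase that limits ERK signalling, was steadier between replicate numbers, at 8.78, 8.59 and 8.40 with eGFP. Its mean differences were 0.60, 1.57 and 0.76 and its pooled value 0.98 (limma adjusted p = 0.142). By variant the value of Dusp6 was 1.33 with β4a, 1.18 with β4b and 0.41 with β4e. In replicate 1 its β4e level of 8.40 was below eGFP. Dusp1, a phosphatase for stress kinases, stood at 7.37, 8.82 and 8.32 with eGFP and at 10.51, 13.03 and 8.26 with β4a, and its pooled value was 1.55 (limma adjusted p = 0.272).

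Many of these genes are known to respond to calcium through the factor CREB, which binds the cAMP response element, CRE (TGACGTCA, or its shorter core TGACG). The promoters of Dusp1 and Npas4 are printed because they carry such letters and their genes had wide differences in the list. The windows, from RefSeq on GRCm38.p6, run from 250 bases before the start site to 50 after it, on the gene's strand, and capitals mark matches on either strand. Dusp1 lies at chr17:26508423-26508722 on the minus strand and Npas4 at chr19:4989922-4990221 on the minus strand.
Dusp1: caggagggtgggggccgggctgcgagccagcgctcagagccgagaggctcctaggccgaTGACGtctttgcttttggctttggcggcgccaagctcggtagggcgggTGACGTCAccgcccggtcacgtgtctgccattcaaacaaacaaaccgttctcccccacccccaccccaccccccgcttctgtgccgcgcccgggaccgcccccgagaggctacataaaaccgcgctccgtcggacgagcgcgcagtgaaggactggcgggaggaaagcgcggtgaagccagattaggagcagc
Npas4: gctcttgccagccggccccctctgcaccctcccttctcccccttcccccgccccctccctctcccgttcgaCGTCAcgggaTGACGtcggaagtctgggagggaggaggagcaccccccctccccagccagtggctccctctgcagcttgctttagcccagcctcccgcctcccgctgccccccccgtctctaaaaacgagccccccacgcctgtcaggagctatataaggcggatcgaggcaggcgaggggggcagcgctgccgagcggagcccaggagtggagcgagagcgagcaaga
The Dusp1 window holds a CRE that starts 143 bases before the start site and a further core 191 bases before it, and the Npas4 window holds 2 cores. A core lies within every CRE. Of the 29 list genes with a window in the table, 3 held a CRE (10.3%) and 18 a core (62.1%), against 1.88% and 21.0% of 27025 genes. Of the 5 genes that passed the pooled test, Haghl, Rasgef1a and Limd2 had a listed window, and the window read held neither sequence. Only the first listed window of each gene was read for these counts. Haghl, Rasgef1a and Limd2 had 3, 2 and 3 windows listed. The list was written from general knowledge of activity-induced genes, many of them known CREB responders. Its share of matches therefore uses no value of these arrays and is not a result about them. A match of letters is a description and not a bound site, and a part of CREB in the differences was not tested.

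Synaptic and excitability genes were mostly near or below 0. Of 33 presynaptic genes 24 lay below 0 (median -0.07, or -0.02 without eGFP replicate 2), 5 lower and 1 higher at an unadjusted p under 0.05. Syn3, a synapsin of synaptic vesicles, stood at 9.47, 6.48 and 8.86 with eGFP, at 9.07, 4.66 and 7.12 with β4b and at 9.83, 5.05 and 7.80 with β4e, and differed by -1.04 (limma adjusted p = 0.111). Pclo, a scaffold of the active zone where calcium channels cluster, differed by -0.35 with all 9 differences below 0. Stx1a, a fusion protein that binds calcium channels, differed by -0.81. Its mean differences were -0.11, -1.70 and -0.61 in replicates 1, 2 and 3. With β4e it was above eGFP in replicate 1 and almost level with it in replicate 3. Vamp1, a vesicle fusion protein, differed by 0.79 with all 9 differences above 0 (limma adjusted p = 0.0852).

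Of 27 genes of glutamate receptors and their scaffolds, 19 lay below 0 (median -0.13), 7 lower and 3 higher at an unadjusted p under 0.05. Leaving out eGFP replicate 2 or 3 moved their median to -0.08 or -0.07. Grm5, a metabotropic receptor that couples to calcium stores, differed by -0.88 and Dlg2, a postsynaptic scaffold, by -0.51. In replicates 1, 2 and 3 the mean differences of Grm5 were -0.23, -1.35 and -1.06. Those of Dlg2 were -0.13, -0.69 and -0.71. Gria1, an AMPA receptor subunit, differed by 1.59 with an SE of 0.535. It stood at 5.34, 4.36 and 5.07 with eGFP, and at 8.02 and 9.07 in replicate 3 with β4a and β4b but 5.32 to 6.53 on the other variant arrays. Within replicate numbers the mean difference of Gria1 over the variants was 0.20, 1.88 and 2.69 in replicates 1, 2 and 3. The rise was thus seen in replicates 2 and 3 and was small in replicate 1.

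The 30 potassium channel genes split evenly, 15 above and 15 below 0, with 6 higher and 1 lower at an unadjusted p under 0.05. The lower one was Kcna2. Kcnip2, an auxiliary protein of A-type channels, stood at 6.07, 8.28 and 6.62 with eGFP and differed by 0.64 with all 9 differences above 0 (limma adjusted p = 0.0852). Dpp10, another auxiliary subunit of A-type channels, differed by 0.95, and Kcnab2, a β subunit of Kv1 channels, by 0.44. Because eGFP levels of Dpp10 were 3.44, 4.25 and 4.25, its difference starts near background.

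Markers of granule cells lay slightly below 0 in 18 of 24 cases (median -0.08, or -0.15 without eGFP replicate 1). At an unadjusted p under 0.05, 3 were lower and 1 was higher. Fat2, a giant cadherin of granule cells, differed by -0.47, Reln, the secreted signal they release, by -0.28 and the lineage factor Zic2 by -0.24, each with all 9 differences below 0. Mef2c, a calcium-regulated transcription factor, differed by 0.49. Among neuronal progenitor and Sonic hedgehog genes, Ccnd2, a cyclin of dividing progenitors, differed by 0.91 and Insm1 by -1.18, with a list median of 0.00 over 19 genes.

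Cholesterol synthesis and secretory stress genes were mostly above 0. Of 19 cholesterol genes 17 lay above 0 (median 0.21), with 6 higher and 0 lower at an unadjusted p under 0.05. Fdft1, which makes squalene, stood at 10.31, 10.45 and 10.66 with eGFP and between 10.53 and 11.07 on the variant arrays, and differed by 0.39 with all 9 differences above 0 (limma adjusted p = 0.136). The list median was 0.25 with β4a, 0.18 with β4b and 0.10 with β4e. Of 25 genes of the unfolded protein and integrated stress response, 21 lay above 0 (median 0.15, or 0.23 without eGFP replicate 3), with 9 higher and 0 lower at an unadjusted p under 0.05. Pdia3 and Pdia4, which form disulphide bonds in the endoplasmic reticulum, differed by 0.40 and 0.25, and the chaperone Calr, which also buffers calcium, by 0.26.

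**Figure D3:**
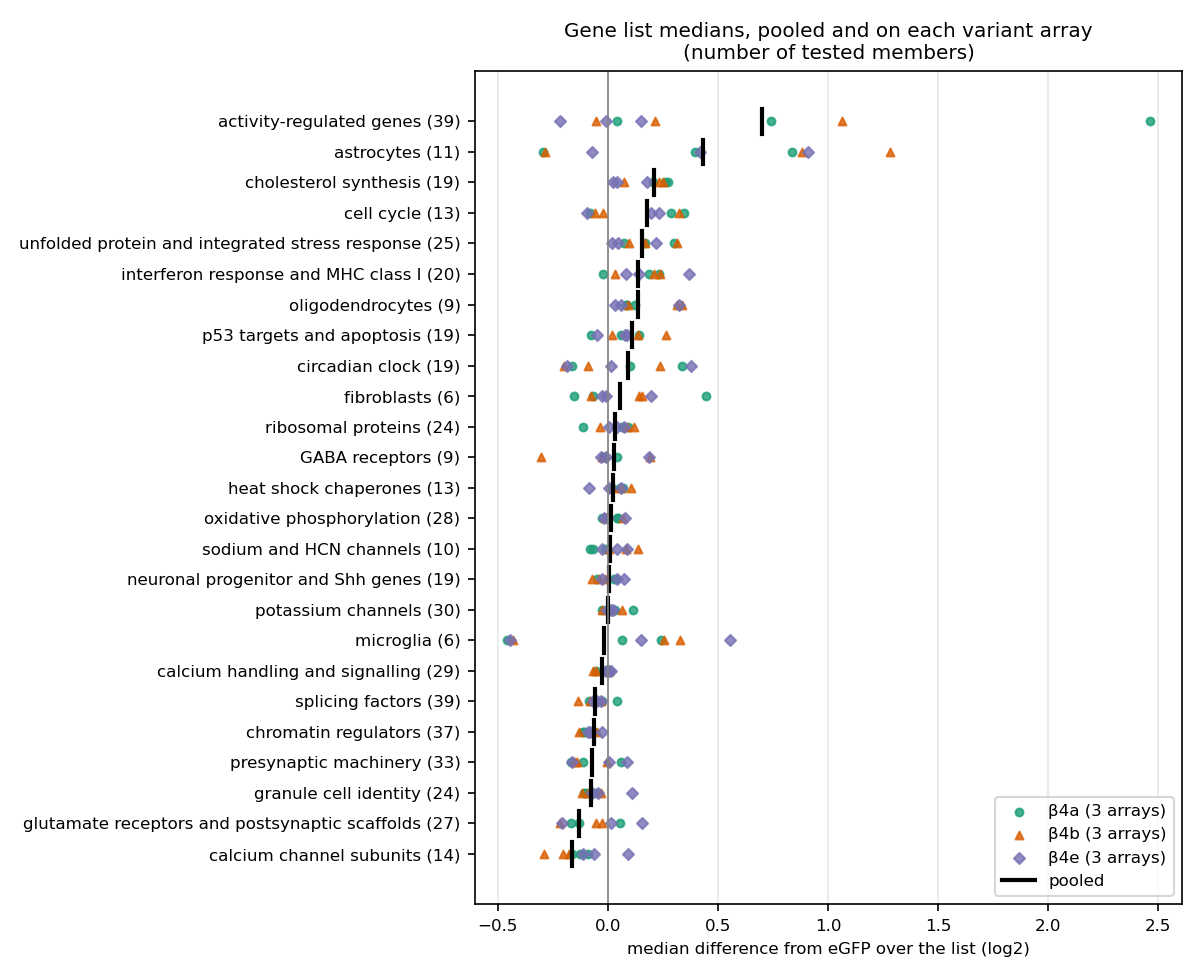
Median difference from eGFP on the log2 scale (horizontal axis) of each gene list with 5 or more tested members, given in parentheses; points are the 9 variant arrays, each against the eGFP array of its replicate number, and the black tick is the median of the pooled values. The activity-regulated list spreads from -0.22 to 2.46 between arrays, and the cholesterol list has all 9 points above 0.

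Markers of other cell types differed as well, and in bulk samples fewer cells of a type and less RNA per cell cannot be told apart. All 11 astrocyte markers had a pooled value above 0 (median 0.43), 4 of them higher at an unadjusted p under 0.05. The mean level of the 11 markers was 8.97 to 9.99 on the eGFP arrays and 9.66 to 10.85 on the variant arrays. The list median was -0.21 in replicate 1, 0.75 in replicate 2 and 0.80 in replicate 3, and leaving out eGFP replicate 1 or 3 moved its pooled value to 0.77 or 0.25. Slc1a3, a glial glutamate transporter, stood at 10.05, 7.79 and 8.84 with eGFP and at 9.57, 10.26 and 11.42 with β4b. The part of glial RNA in the other lists was not tested. Of the 9 oligodendrocyte markers 9 lay above 0 (median 0.14, or 0.21 without eGFP replicate 1), microglial markers had a median of -0.02 over 6, and all 6 endothelial and pericyte markers stayed below 4 on every array on the probe set with the highest mean. A further probe set of the pericyte receptor Pdgfrb was above 4 in replicate 1 only, at 4.22 to 4.61.

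Probe sets without a gene symbol lay mostly below 0, a pattern chosen for description after seeing the data. Of 3033 such probe sets, 73.1% lay below 0, and 24.6% were lower and 2.90% higher at an unadjusted p under 0.05. For the brightest probe set of each of 10983 genes, 3.82% were lower and 10.7% higher. The class median was -0.14, with -0.15, -0.16 and -0.10 for β4a, β4b and β4e. By array it was -0.22, -0.17 and -0.05 with β4a, -0.23, -0.11 and -0.13 with β4b, and -0.13, -0.17 and 0.00 with β4e in replicates 1, 2 and 3. By mean level, the share lower without a symbol was 19.8% at 4 to 5, 32.5% at 5 to 6, 37.2% at 6 to 8, 30% at 8 to 10 and 8.66% at 10 to 16. For the brightest probe sets of genes it was 3.14%, 2.78%, 4.10%, 4.66% and 4.25% in the same order. The number lower, 746, was 361 without eGFP replicate 1, 493 without eGFP replicate 2 and 28 without the block. It was 942 when arrays were centred on their medians. None had an adjusted p under 0.05 (limma, smallest 0.0612).

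**Figure D4:**
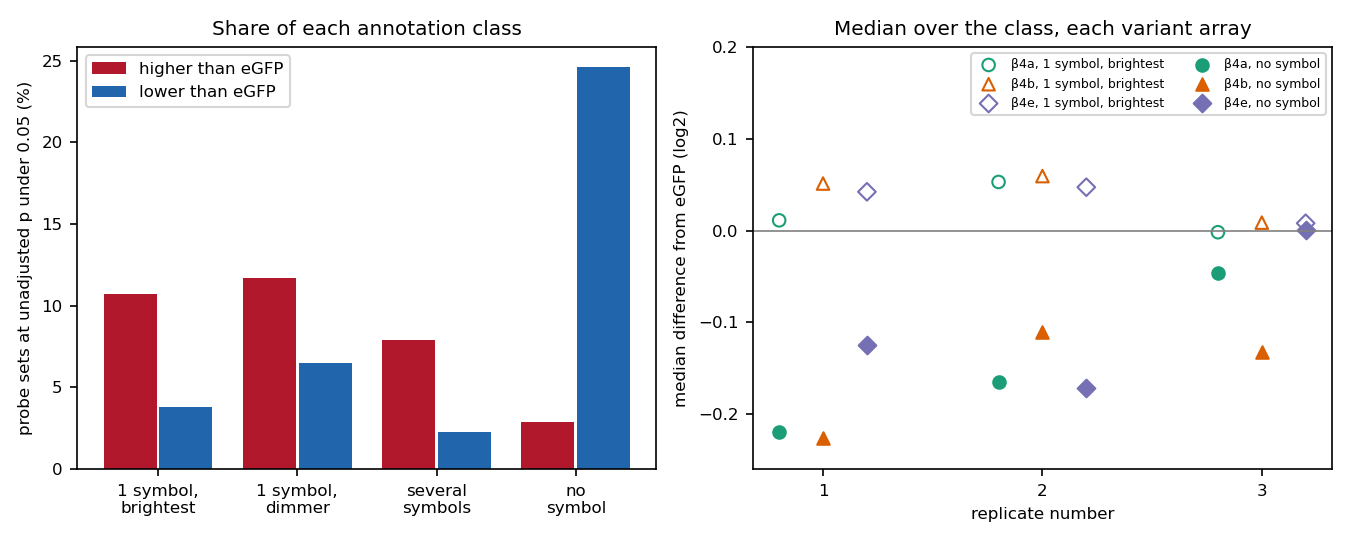
Left, percent of the probe sets of each annotation class that were higher or lower than eGFP at an unadjusted p under 0.05 in the pooled contrast; right, median difference from eGFP on the log2 scale for each of the 9 variant arrays, open symbols for the brightest probe set of a gene and filled symbols for probe sets with no symbol. The share lower is 24.6% without a symbol against 3.82% for the brightest probe sets, and 8 of 9 filled points lie below 0.

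The control probe sets for 18S ribosomal RNA also differed between arrays. Their mean difference from eGFP was 0.31, 0.76 and 0.69 with β4a, 1.72, 0.42 and 0.99 with β4b, and -0.74, -0.10 and 0.72 with β4e in replicates 1, 2 and 3. The control probe sets of β-actin and Gapdh had pooled differences between -0.04 and 0.03. The part of such differences in RNA make-up in the values of probe sets without a symbol was not tested.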

How the data were processed

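The deposited values are log2 intensities made by the authors with GCRMA, per the submitters' processing notes (version not given in the sources used here). GCRMA corrects background by probe sequence, normalizes between arrays and gives 1 value per probe set, so dim probe sets are compressed near background. Values were used as deposited. Array medians lay between 3.83 and 3.90. All 12 arrays were fitted with limma 3.58.1 in R 4.3.3 (1 coefficient per group and the replicate number as a block, which leaves 6 residual degrees of freedom), checked on simulated data. The 64 AFFX controls and probe sets above 4 in fewer than 3 arrays were left out. P-values are two-sided. The pairing came from the titles' numbers and was checked on deviations from group means: same-numbered pairs had r of 0.699 to 0.884, others at most 0.146. Deviations from a mean of 3 arrays cancel out within a group, which lowers the r of the other pairs. Only the same-numbered values bear on the pairing. Symbols came from the platform annotation (34945 probe sets with 1 symbol, 932 with several, 9160 with none). Named genes were those past the threshold with 1 symbol and 9 differences of 1 sign, filled to 12 per direction by smallest p, with up to 5 members per list by p and further members chosen after their values were seen. The members and lists were chosen with earlier results of these data known. The number of arrays limits the precision. Alternatives changed the block, filter, scaling, prior and arrays included.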

Additional observations from a re-analysis of the deposited data

Results flagged for a closer look

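For the activity-regulated genes, the list median on β4a replicate 1 was 2.46, far from the other 8 variant arrays, which lay between -0.22 and 1.06. For the GABA receptor genes, the list median of -0.30 on β4b replicate 1 lay far below the others. For the granule cell identity genes, the list median on β4e replicate 1 was 0.11, the only one of the 9 above 0. These 3 stood out by the gap to the nearest array as a share of the range (0.522, 0.549 and 0.618, each above Dixon's 95% critical value for 9 arrays). The 24 named genes and 25 lists were checked, and chance alone marks about 1 in 20 groups. For the sodium and HCN channel genes, the list medians of the 3 β4a arrays lay below 0 and those of the 3 β4b arrays above 0. The difference of β4a from β4b was -0.15, and this difference was not tested.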

How the results depend on the processing

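The 5 probe sets of the pooled contrast became 1 with an intensity trend and robust prior, 11 with median centring, 17 with no filter on low values, 1 with quantile normalization once more and 16 with the stricter filter (above 6). With no replicate block the count was 0, as it was with the replicate block by 3 differences, with the replicate block and 1 coefficient for all variants, and without the β4a, the β4b or the β4e arrays. Leaving out 1 array or 1 replicate number gave 0 to 3 probe sets. Insm1 was the one that passed with the trend, with quantile normalization and without replicate 1. Probe sets without a symbol at an unadjusted p under 0.05 and lower numbered 746, 28 with no replicate block, 397 with the stricter filter (fewer probe sets tested) and 361 to 865 when 1 array or 1 replicate number was left out. The causes were not tested. The counts for a change shared by all 3 variants and for a difference among them were 0 under each of their 21 alternatives. With quantile normalization the split at an unadjusted p under 0.05 was 1874 higher and 2137 lower. List medians turned sign under median centring for GABA receptors, heat shock chaperones, ribosomal proteins, oxidative phosphorylation, sodium channels and progenitor genes. Values near 4 lie close to background, so differences of dim probe sets are not exact.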

Other observations

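Of 20 interferon response and MHC class I genes, 16 lay above 0 (median 0.14, or 0.25 without eGFP replicate 1), with 4 higher and 0 lower at an unadjusted p under 0.05. Ifi35, an interferon-induced gene, differed by 1.08 with all 9 differences above 0, from 6.84, 4.86 and 4.63 with eGFP (limma adjusted p = 0.139). Xaf1, which promotes cell death, differed by 0.44. Among p53 targets, Pmaip1, the BH3-only death gene Noxa, stood at 4.93, 3.19 and 3.03 with eGFP and at 5.37, 3.65 and 4.04 with β4e. It differed by 0.71 with all 9 above 0 (limma adjusted p = 0.0816), although eGFP levels under 4 are near background. Hrk, another BH3-only gene, differed by -0.33.

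Clock genes differed in opposite directions. Arntl and Clock, which form the activating pair of the circadian clock, differed by -0.50 and -0.38, each with all 9 differences below 0, and Hlf, a clock output factor, by 0.55. The list median of 0.09 turned sign without eGFP replicate 1 and without all arrays of replicate 1. Of 37 chromatin regulators 27 lay below 0 (median -0.06), among them the histone methyltransferases Kmt2d (-0.39) and Setd2 (-0.32), while Hdac9, a histone deacetylase, differed by 0.67. Of 39 splicing factors 27 lay below 0, and Nova1, a neuronal splicing regulator, differed by 0.29. None of these genes had an adjusted p under 0.05 in limma.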
